A study of Mus musculus with 20 samples.

Results

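Fatty acid oxidation and ketogenesis were followed through 36 genes in liver and white adipose tissue (WAT) of mice with and without CD44. The genes were chosen by function, with earlier results of these data known but with no measured value in the rule. They encode the enzymes and carriers that activate fatty acids and bring them into mitochondria, the mitochondrial and peroxisomal oxidation enzymes, the microsomal omega-hydroxylases, a ketone body enzyme, and the nuclear receptor PPAR alpha with further genes known as its targets. They lie on 50 of the 41174 probes other than controls, and the array carried 27962 gene names in all. Each gene was read by its probe with the highest mean signal over all 20 arrays, and other probes are given where their sign or call differed.

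The animals were male C57BL/6 mice, wild type (WT) or deficient in CD44 (CD44KO), a cell-surface receptor for hyaluronan, in every tissue, and the deficient line had been backcrossed to C57BL/6J. At 7 months of age, all had spent 21 weeks on a diet with 35% fat (HFD), so the diet was common to both genotypes and its effect was not compared here. Liver and WAT were profiled in 5 WT(HFD) and 5 CD44KO(HFD) mice each. The labels do not tie a liver to the WAT of the same mouse, and p-values measure the spread between these samples.

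In beta-oxidation, fatty acids are joined to coenzyme A, carried into mitochondria as acylcarnitines by the carnitine shuttle, and shortened stepwise to acetyl-CoA, with electrons passed to the respiratory chain through electron transfer flavoprotein. Peroxisomes shorten very long and branched chains first, and microsomal cytochromes of the Cyp4a family start oxidation from the methyl end. Liver turns acetyl-CoA into ketone bodies in fasting, and PPAR alpha, a lipid-activated transcription factor, drives many of these genes there. Adipose tissue mainly stores and releases fatty acids and makes few ketone bodies.

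Signals are given as log2 of the processed signal minus the array's 75th percentile, so 0 is the 75th percentile of that array. That percentile was 432.7 to 574.6 in liver and 1541 to 2792 in WAT. In liver, 57.4% to 61.9% of probes were well above background. In WAT the share was 63.2% to 69.5%, except for WT WAT replicate 1 at 89.5%, which also had the lowest mean correlation with the other arrays of its group (0.880) and the highest summed muscle and epididymis markers among the WT WAT arrays. WAT results are therefore given with and without it. Cd44 itself, on the probe with the highest signal, went from 0.48 ± 0.28 to -3.74 ± 0.41 in liver and from 4.07 ± 0.37 to -0.51 ± 0.13 in WAT (mean ± SD, n = 5 each) in the direction the labels give. Another Cd44 probe was dim, at -4.93 in WT and -4.74 in CD44KO liver, and did not follow.

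In liver, Acsl1, Acaa2, Etfa, Etfdh, Ehhadh, Cyp4a10, Cyp4a14 and Acot1 were higher in CD44KO(HFD) mice, whereas Pdk4 and Pex11a were lower, and the receptor Ppara and the carnitine shuttle gene Cpt1a showed no call. Of the 36 genes, 10 passed an adjusted p of 0.05 in limma, 8 higher and 2 lower. That is 27.8% of the genes, beside 13.6% of the 24663 probes tested, 7.86% called higher and 5.77% called lower. The median difference over the 36 genes was 0.16 on the log2 scale, with 25 genes higher and 11 lower. Over all probes tested the median was 0.08, and 61.3% of them were higher in CD44KO mice. Values of the 2 genotypes did not overlap for 9 of the 36 genes, beside 11.7% of all probes. All 36 probes were well above background on all 5 arrays of every group.

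The count of liver calls was not stable. Without WT replicate 1, WT replicate 2 or CD44KO replicate 4 only Pdk4 passed. With CD44KO replicate 1 or 2 left out 2 genes passed, and without WT replicate 3 it was 3. Without WT replicate 5 it was 4 and without CD44KO replicate 5 it was 5. With any 1 of the arrays named left out, 3.8% to 9.37% of all probes passed. With normexp background correction in place of the processed signal, none of the 36 genes passed as higher and 2 passed as lower. Over all probes 2.6% passed, and the median was 0.14, beside 0.04 over the 36 genes. All 10 genes kept the sign of their difference on each of the 3 liver slides, every one of which held both genotypes. The genes were picked on these same arrays, so neither these signs nor the permutation tests below are independent support. For Pdk4, Acsl1, Acaa2, Etfa, Ehhadh and Cyp4a10, whose genotypes did not overlap, the sign on each slide was fixed beforehand. Cyp4a14, for example, differed by 1.21, 1.05 and 1.04 on slides 4, 5 and 6, Acsl1 by 0.73, 0.53 and 0.42, Acaa2 by 0.41, 0.37 and 0.44, and Pex11a by -0.95, -0.22 and -0.65. Over all 36 genes, 26, 30 and 18 were higher in CD44KO mice on these slides, the last of which held 1 array of each genotype. In exact permutation tests of single genes, Pdk4, Acsl1, Acaa2, Etfa, Ehhadh and Cyp4a10 gave p = 0.00794, Acot1, Etfdh and Cyp4a14 p = 0.0159, and Pex11a p = 0.0238.

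**Figure D1:**
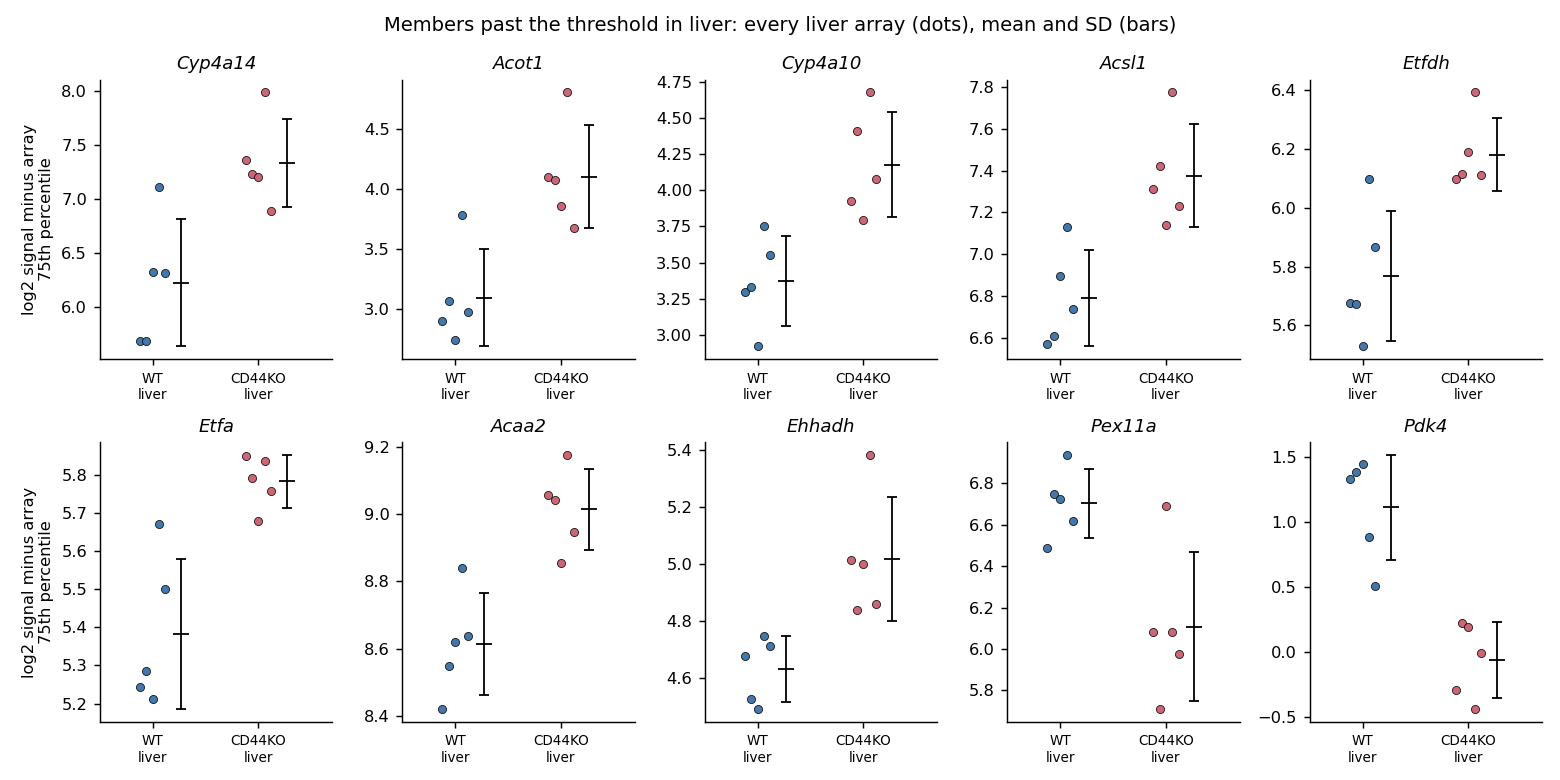
Log2 signal relative to the 75th percentile (vertical axis) of the 10 genes called in liver, with 1 point for each of 5 WT(HFD) and 5 CD44KO(HFD) livers and lines for mean and SD. Pdk4 lies wholly lower in CD44KO(HFD), while Acsl1, Acaa2, Etfa, Ehhadh and Cyp4a10 lie wholly higher.

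Pdk4, a kinase that shuts off pyruvate dehydrogenase and so spares glucose when fatty acids are burned, had the lowest adjusted p of the 36 genes. Its liver signal was 1.34, 1.39, 1.45, 0.89 and 0.51 in the 5 WT mice and -0.29, 0.22, 0.19, -0.44 and -0.00 in the 5 CD44KO mice. The lowest WT value stood above the highest CD44KO value. Pdk4 fell to 0.442 times its WT level, a log2 difference of -1.18 ± 0.20 (SE, adjusted p = 0.0122 in limma), with a 95% interval of -1.63 to -0.72. The exact permutation test gave p = 0.00794, the smallest that 5 arrays against 5 allow. On the 3 slides the difference was -1.24, -0.83 and -1.74. It passed under 20 of 21 other settings, and it missed (adjusted p = 0.0505) in the fit of all arrays together. Its probe maps to chr6:5436327-5436386 on the minus strand in the mm7 build of the array design, and no annotation of that build was used to say which exon holds it.

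Acot1 and Acot2 encode sister acyl-CoA thioesterases, cytosolic and mitochondrial, which release free fatty acids from coenzyme A. Acot1 liver signals were 2.90, 3.07, 2.75, 3.79 and 2.98 in WT and 4.10, 4.07, 3.86, 4.80 and 3.67 in CD44KO mice. WT replicate 4 was higher than the lowest CD44KO value, so the groups overlapped by that array. The mean rose 2.01-fold, with a 95% interval of 0.47 to 1.53 for the log2 difference (adjusted p = 0.0263 in limma), and the exact permutation test gave p = 0.0159. Acot2 was at -1.14, -0.69, -1.26, -1.30 and -1.48 in WT livers and at -2.07, -2.85, -1.24, -1.61 and -2.26 in CD44KO livers. Its mean was 0.561 times the WT level and the difference, -0.83 ± 0.28, missed the threshold (adjusted p = 0.0695 in limma). The Acot1 probe maps to chr12:82013539-82013598 and the Acot2 probe to chr12:81989158-81989217 (mm7), and how far each probe also binds the other transcript was not tested.

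Because PPAR alpha binds as a pair with RXR to a DR1 element, AGGTCA and AGGTCA parted by 1 base, the 250 bases before the listed start (RefSeq, GRCm38.p6) were searched on both strands, allowing 3 mismatches in the 12 fixed letters. Of all 32851 starts, 21.3% held such a match. Among the 36 genes, 27 had a listed start, and 8 of their 29 starts matched (27.6%). Only 2 starts, those of Etfa and Echs1, matched with 2 mismatches or fewer, which 3.24% of all starts did. The windows of Pdk4 and Acot1, the genes called on opposite sides, are shown with that of Etfa, the only gene called in liver that has a match. Bases are 5′ to 3′ along the gene's strand, and capitals mark the match.
Pdk4, chr6:5496279-5496528, minus strand: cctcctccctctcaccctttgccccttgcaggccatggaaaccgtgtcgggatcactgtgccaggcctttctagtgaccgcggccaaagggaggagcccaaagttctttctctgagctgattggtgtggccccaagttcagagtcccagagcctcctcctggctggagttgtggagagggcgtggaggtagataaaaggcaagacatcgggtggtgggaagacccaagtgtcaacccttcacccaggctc
Acot1, chr12:84009252-84009501, plus strand: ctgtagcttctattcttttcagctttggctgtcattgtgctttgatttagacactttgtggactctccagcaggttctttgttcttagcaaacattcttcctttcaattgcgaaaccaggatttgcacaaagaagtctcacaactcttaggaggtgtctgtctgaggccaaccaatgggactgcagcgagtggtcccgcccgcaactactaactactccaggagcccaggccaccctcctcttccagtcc
Etfa, chr9:55512244-55512493, minus strand: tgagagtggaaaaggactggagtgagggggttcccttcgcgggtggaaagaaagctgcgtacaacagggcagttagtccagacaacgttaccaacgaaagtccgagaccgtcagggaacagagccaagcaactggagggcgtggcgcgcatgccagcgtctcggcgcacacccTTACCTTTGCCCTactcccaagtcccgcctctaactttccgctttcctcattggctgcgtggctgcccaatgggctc
The Etfa match lies 77 to 65 bases before the start on the strand opposite to the gene, and the Pdk4 and Acot1 windows hold none. Neither of the 2 listed starts of Acsl1 had a match, nor had the starts of the called genes Etfdh, Ehhadh and Pex11a. Acaa2, Cyp4a10 and Cyp4a14 had no listed start. A match in these letters describes the sequence and does not show binding.

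Among the genes that activate fatty acids and feed the carnitine shuttle, 1 of 6 passed in liver. Acsl1, the long-chain acyl-CoA synthetase, was at 6.57, 6.61, 6.90, 7.13 and 6.74 in WT and at 7.31, 7.42, 7.14, 7.78 and 7.23 in CD44KO livers. The groups met but did not overlap, with WT replicate 4 just under CD44KO replicate 3. Acsl1 rose 1.5-fold (0.59 ± 0.14 on the log2 scale, adjusted p = 0.0284 in limma), and its other 2 probes passed in the same direction with differences of 0.60 and 0.65. Cpt1a, the liver isoform of carnitine palmitoyltransferase 1 and the gate of mitochondrial import, was at 5.16, 5.32, 5.59, 5.41 and 5.37 in WT and at 5.31, 5.15, 5.38, 5.66 and 5.38 in CD44KO livers. The groups lay on top of each other. The difference was 0.01 with a 95% interval of -0.24 to 0.25 (adjusted p = 0.974 in limma), and its sign turned under other scalings: normexp gave -0.10, quantile normalization -0.10 and the mean of its probes -0.07. Cpt2, which frees the acyl group inside the mitochondrion, differed by 0.34 ± 0.10 and narrowly missed (adjusted p = 0.0535 in limma). The muscle isoform Cpt1b, the translocase Slc25a20 and the carnitine acetyltransferase Crat differed by 0.23, 0.09 and 0.09, with no call. A second Cpt1b probe was at -0.36.

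The mitochondrial oxidation spiral and its auxiliary enzymes had 9 of 11 genes with a positive liver difference, beside 61.3% of all probes. It was 6 under normexp and 8 under quantile normalization and with array weights. There was 1 call, and the median was 0.20. Acaa2, the thiolase that releases acetyl-CoA in the last step of each turn, was at 8.42, 8.55, 8.62, 8.84 and 8.64 in WT and at 9.06, 9.04, 8.85, 9.18 and 8.95 in CD44KO livers. WT replicate 4 and CD44KO replicate 3 almost touched, and the groups did not overlap. Acaa2 rose 1.32-fold (0.40 ± 0.09 on the log2 scale, adjusted p = 0.0253 in limma). The acyl-CoA dehydrogenases Acadvl and Acadl, which start each turn on very long and long chains, did not overlap either. Both narrowly missed the threshold, at 0.26 ± 0.08 (adjusted p = 0.0503) and 0.33 ± 0.10 (adjusted p = 0.0538 in limma). Acadvl was at 7.47, 7.52, 7.67, 7.67 and 7.63 in WT and at 7.97, 7.83, 7.81, 7.96 and 7.71 in CD44KO livers. Acadl was at 2.95, 2.79, 3.09, 3.08 and 3.04 in WT and at 3.22, 3.20, 3.26, 3.62 and 3.29 in CD44KO livers. In both, all 5 CD44KO values lay above all 5 WT values by a narrow gap. Acadm and Acads, the medium- and short-chain enzymes, differed by 0.20 and 0.01. The trifunctional protein subunits Hadha and Hadhb differed by 0.06 and -0.03, the hydroxyacyl-CoA dehydrogenase Hadh by -0.02, the hydratase Echs1 by 0.20, and the isomerase Eci1 and dienoyl-CoA reductase Decr1, which handle unsaturated chains, by 0.09 and 0.25, all without a call. A second Hadha probe was at 0.56 and did not pass either (adjusted p = 0.137 in limma).

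Electron transfer from the acyl-CoA dehydrogenases had 2 of its 3 genes called. Etfa, the alpha subunit of electron transfer flavoprotein, was at 5.24, 5.29, 5.21, 5.67 and 5.50 in WT and at 5.85, 5.79, 5.68, 5.84 and 5.76 in CD44KO livers. WT replicate 4 came up to the lowest CD44KO value without passing it. Etfa rose 1.32-fold (adjusted p = 0.0284 in limma). Etfdh, which hands these electrons to ubiquinone, was at 5.68, 5.67, 5.53, 6.10 and 5.87 in WT and at 6.10, 6.12, 6.19, 6.39 and 6.11 in CD44KO livers. Here too WT replicate 4 reached the CD44KO range. Etfdh rose 1.33-fold (adjusted p = 0.0399 in limma), and its second probe gave 0.41 with no call (adjusted p = 0.0702). The beta subunit Etfb differed by 0.25 (adjusted p = 0.226).

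Peroxisomal genes were called in both directions in liver, with 1 of 7 called higher, 1 called lower and a median of -0.02. Ehhadh, the bifunctional enzyme of the classical peroxisomal pathway, was at 4.68, 4.53, 4.49, 4.75 and 4.71 in WT and at 5.01, 4.84, 5.00, 5.38 and 4.86 in CD44KO livers. Every CD44KO value stood above every WT value. Ehhadh rose 1.31-fold (0.39 ± 0.11, adjusted p = 0.0458 in limma), the weakest of the 10 calls, which passed under 5 of 21 other settings. Pex11a, which promotes peroxisome division, was at 6.49, 6.75, 6.73, 6.94 and 6.62 in WT and at 6.08, 5.71, 6.69, 6.08 and 5.98 in CD44KO livers. CD44KO replicate 3 lay among the WT values while the other 4 lay below them. Pex11a fell to 0.662 times its WT level (-0.60 ± 0.17, adjusted p = 0.0415 in limma). The thiolase Acaa1a did not overlap between genotypes but missed the threshold (0.28, adjusted p = 0.133), and its other probes gave 0.03 and -0.10, the latter also listing Acaa1b. The thiolase Acaa1b, the D-bifunctional enzyme Hsd17b4 and the dienoyl-CoA reductase Decr2 differed by -0.03, -0.02 and -0.08, and the very long-chain importer Abcd2 by 0.40 with no call and by -0.06 on its second probe.

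Both Cyp4a hydroxylases, microsomal enzymes that start omega-oxidation and are widely used as readouts of PPAR alpha, were higher in CD44KO livers. Cyp4a14 was at 5.68, 5.68, 6.32, 7.11 and 6.32 in WT and at 7.36, 7.23, 7.20, 7.99 and 6.89 in CD44KO livers. WT replicate 4 was higher than CD44KO replicate 5, the only crossing. Cyp4a14 rose 2.16-fold (1.11 ± 0.29, adjusted p = 0.0333 in limma). Cyp4a10 was at 3.30, 3.33, 2.92, 3.76 and 3.55 in WT and at 3.93, 4.41, 3.79, 4.68 and 4.08 in CD44KO livers. The groups did not overlap, although WT replicate 4 and CD44KO replicate 3 almost met. Cyp4a10 rose 1.75-fold (0.81 ± 0.20, adjusted p = 0.0281 in limma), and its other probes gave 1.04 (adjusted p = 0.0355) and 0.70 (adjusted p = 0.0785). Genes of this family are close in sequence, and binding of one transcript to another's probe was not tested. Aldh3a2, the fatty aldehyde dehydrogenase of the same route, differed by -0.15.

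The receptor and the ketone body enzyme showed no call. Ppara was at 4.12, 4.55, 4.62, 5.02 and 4.36 in WT and at 4.41, 4.26, 4.51, 4.82 and 4.46 in CD44KO livers. The CD44KO values fell inside the WT range. The difference was -0.04 with a 95% interval of -0.41 to 0.32 (adjusted p = 0.888 in limma), and its sign turned to 0.01 with array weights. Bdh1, the mitochondrial dehydrogenase that interconverts the ketone bodies acetoacetate and beta-hydroxybutyrate, was at 6.84, 7.00, 7.14, 6.99 and 7.02 in WT and at 7.10, 7.06, 7.10, 7.33 and 7.00 in CD44KO livers. The groups overlapped. Bdh1 differed by 0.12 with a 95% interval of -0.06 to 0.31 (adjusted p = 0.345 in limma), and its second probe gave -0.01. Vnn1, a pantetheinase and known PPAR alpha target, differed by -0.05. So of the 5 genes in the receptor's own list, Acot1 was called higher and Pdk4 lower, with a list median of -0.05.

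CD44KO replicate 4 had the highest liver value of its group in 29 of the 36 genes, and WT replicate 4 in 19. Cell type markers differed between the same arrays. The 12 hepatocyte markers had a median difference of 0.32, larger than that of the 36 genes, with 4 called higher and mean levels of 7.28 to 7.65 in WT and 7.62 to 7.90 in CD44KO arrays. Of 10 stellate cell and fibroblast markers, 5 were called lower (median -0.61, mean levels 1.84 to 2.71 in WT and 1.05 to 2.01 in CD44KO). Of 10 macrophage markers tested, 7 were lower and 3 higher, with 3 called lower (median -0.73). Of 8 T cell markers tested, 6 were lower and 2 higher, with 4 called lower (median -0.57). Of 10 adipocyte markers 6 were tested in liver, 3 higher and 3 lower (median -0.27), with 1 called lower. Among those not tested, the adipocyte-restricted hormones Lep and Adipoq were well above background on at most 1 of 5 arrays in each liver group. In bulk tissue fewer cells of a type and less RNA per cell cannot be told apart, and the part of these markers in the liver results was not tested.

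**Figure D2:**
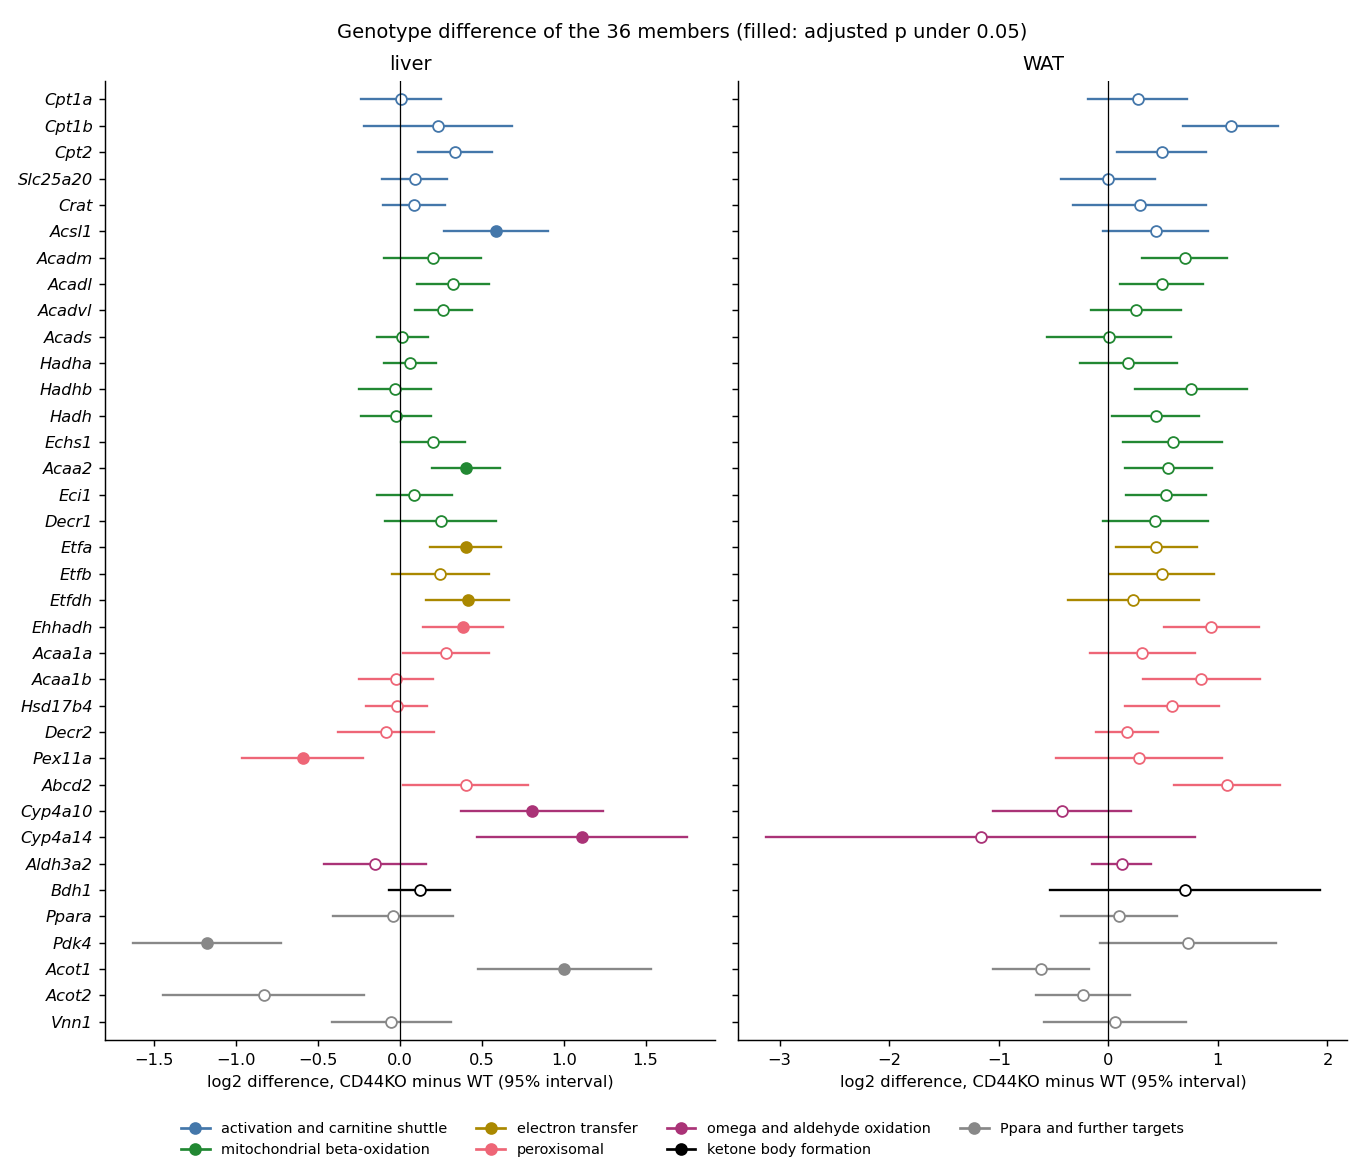
Log2 difference CD44KO(HFD) minus WT(HFD) with its 95% interval (horizontal axis) for the 36 genes grouped by role, in liver and in WAT, with filled points for an adjusted p below 0.05. Filled points occur in liver only, 8 to the right of 0 and 2 to the left, while in WAT 31 of 36 points lie to the right of 0.

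In WAT most of the genes had a higher mean in CD44KO(HFD) mice, but none was called. The median difference was 0.43, with 31 genes higher and 5 lower, beside a median of -0.06 over all probes tested. In limma 0 of 36 passed, beside 0.0400% of the 27509 probes, while 16 genes (44.4%) had an unadjusted p below 0.05, beside 14.9% of all probes. The genotypes did not overlap for 11 genes (30.6%), beside 6.17% of all probes. Of these, 10 were higher in CD44KO mice (Cpt1b, Acadm, Hadhb, Hadh, Acaa2, Eci1, Ehhadh, Acaa1b, Hsd17b4 and Abcd2) and 1, Acot1, was lower. WT replicate 1 had the lowest value of its group in 27 of the 36 genes. Without it the median was 0.27, beside 0.04 over all probes, with 29 higher and 7 lower. Then 11 genes did not overlap, beside 8.21% of all probes. Leaving out an array can only narrow the range of its group, so the 11 genes separate with all arrays had to stay separate. With all arrays, quantile normalization gave a median of 0.28, beside 0.11 over all probes. Array weights gave 0.25, beside -0.01 over all probes. Within a fit of all 20 arrays, or with array weights, 11 genes (30.6%) passed in WAT, while calls over all probes went up as well, to 5.68% in the fit of all arrays and 19.2% with array weights. WAT slides 1 and 2 held both genotypes, with 29 and 28 of the 36 genes higher in CD44KO mice, and slide 3 held CD44KO replicates 1 and 4 only. On slides 1 and 2, Cpt1b differed by 1.18 and 1.04, Abcd2 by 1.37 and 0.93 and Ehhadh by 1.21 and 0.65, while Hadh differed by 0.75 and 0.16. None of these genes overlapped between genotypes, so their sign on each slide was fixed beforehand and is not independent support.

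All 11 mitochondrial oxidation genes and all 7 peroxisomal genes had a positive WAT difference, with medians of 0.49 and 0.58, except that Acads turned negative under quantile normalization and the slide block, Pex11a with the slide block and array weights, and Hadha and Acaa1a with array weights. Cpt1b, the isoform typical of muscle and brown fat, was at -1.66, -1.54, -1.98, -1.63 and -1.66 in WT and at -0.22, -0.18, -0.68, -1.06 and -0.76 in CD44KO WAT. Every CD44KO value was the higher, by a mean of 2.17-fold (1.12 ± 0.19, adjusted p = 0.127 in limma), and by 0.67 on the log2 scale on its second probe (adjusted p = 0.423). Abcd2, the peroxisomal importer, was at -1.07, -0.43, -0.37, -0.38 and -0.54 in WT and at 0.63, 1.10, 0.49, 0.22 and 0.18 in CD44KO WAT. It too was separate, with a mean 2.12 times the WT level (1.08 ± 0.22, adjusted p = 0.15 in limma), and its second probe gave 0.54 (adjusted p = 0.369). Ehhadh was at -0.72, 0.19, 0.31, 0.06 and -0.01 in WT and at 0.90, 0.96, 0.82, 1.03 and 0.82 in CD44KO WAT. The CD44KO values were tightly grouped above the WT values, by 0.94 ± 0.20 (adjusted p = 0.165 in limma). Acadm was at 5.01, 5.85, 5.55, 5.60 and 5.36 in WT and at 6.22, 6.20, 6.38, 5.99 and 6.07 in CD44KO WAT. WT replicate 1 was the lowest, and the groups stood apart. For Acadm the difference was 0.70 ± 0.17 (adjusted p = 0.172 in limma), for Acaa1b 0.85 ± 0.24 and for Hadhb 0.75 ± 0.23. Acaa1b was at 2.26, 3.11, 3.01, 3.15 and 2.74 in WT and at 3.76, 4.34, 3.62, 3.39 and 3.38 in CD44KO WAT. Hadhb was at 3.56, 4.02, 4.30, 4.32 and 4.02 in WT and at 4.66, 5.07, 5.37, 4.43 and 4.47 in CD44KO WAT. Both were separate between genotypes in WAT, without a call, and their liver differences were -0.03 each. The difference between the tissues did not pass for either (adjusted p = 0.105 for Acaa1b and 0.126 for Hadhb in limma). Acaa2 differed by 0.55 ± 0.18, Eci1 by 0.52 ± 0.16 and Hadh by 0.43 ± 0.18 in WAT. WT replicate 1 was the lowest WT array for all 3 of these genes. The remaining mitochondrial genes ranged from 0.01 (Acads) to 0.59 (Echs1), and the electron transfer genes from 0.23 to 0.49.

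Of the shuttle genes in WAT, Cpt2 differed by 0.49, Acsl1 by 0.43, Crat by 0.28, Cpt1a by 0.27 and Slc25a20 by -0.00. The second Cpt1a probe had the opposite sign in both tissues (-0.15 in liver, -0.19 in WAT, neither called), and so had the second Hadha probe in WAT (-0.05 against 0.18). Both Cyp4a genes had negative differences in WAT, -0.43 for Cyp4a10 and -1.16 ± 0.88 for Cyp4a14, neither of them called, and Cyp4a10 turned to 0.05 with median centring. Cyp4a14 was at 0.35, 2.16, -2.03, -0.76 and -2.87 in WT and at -2.63, -2.81, -0.51, -1.51 and -1.51 in CD44KO WAT. The spread within each genotype was wider than the difference between them. Bdh1 (0.70), Vnn1 (0.06), Ppara (0.10, with WAT values of -3.90 to -2.96 in WT and -3.79 to -2.77 in CD44KO) and Pex11a (0.28) showed no call, and the sign for Ppara turned to -0.08 with normexp.

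Cell type markers differed between the WAT arrays as well. All 10 adipocyte markers were higher in CD44KO(HFD) WAT, none called, with a median difference of 0.69 and mean levels of 4.33 to 5.37 in WT and 5.33 to 6.17 in CD44KO arrays. All 12 hepatocyte markers were higher too (median 0.85, none called), while all 11 macrophage markers (median -0.52) and all 8 mesothelium markers (median -2.12) were lower without a call. Of the 8 brown fat markers 5 were higher and 3 lower (median 0.25, none called), with differences from -0.51 for Ucp1 to 1.35 for Elovl3. The part of these markers in the WAT values was not tested.

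**Figure D3:**
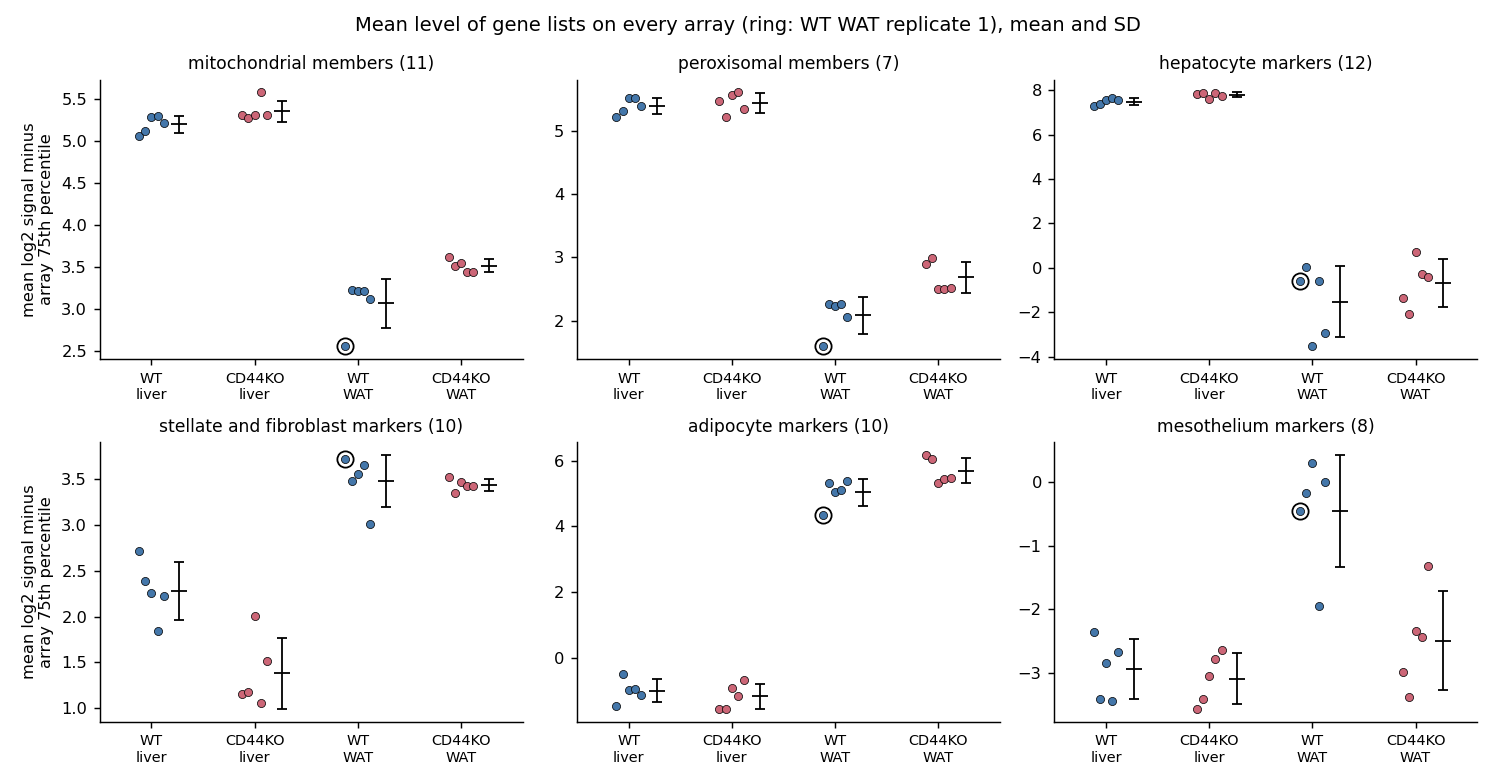
Mean log2 signal per array (vertical axis) of the 11 mitochondrial and 7 peroxisomal genes and of 4 marker lists, for each of the 20 arrays, with a ring around WT WAT replicate 1. In WAT the mitochondrial genes (2.55 to 3.23 in WT, 3.43 to 3.61 in CD44KO) and the adipocyte markers are both higher in CD44KO arrays, and the ringed array is the lowest for the mitochondrial genes.

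The genotype effect itself differed between liver and WAT for 2 of the 36 genes (5.56%), beside 1.16% of the 28817 probes tested in the 20-array fit. For Acot1 the effect was larger in liver by 1.62 ± 0.32 (adjusted p = 0.0254 in limma). Its WAT signals were 0.38, 0.35, 0.18, 0.15 and 0.76 in WT and -0.43, -0.72, 0.13, -0.02 and -0.24 in CD44KO mice. The groups did not overlap, although 0.15 in WT and 0.13 in CD44KO nearly met. The WAT difference of -0.62 ± 0.20 was not called (adjusted p = 0.222 in limma), while Acot1 was called higher in CD44KO liver. For Pdk4 the liver effect minus the WAT effect was -1.90 ± 0.43 (adjusted p = 0.0424 in limma). Pdk4 WAT signals were 1.76, 2.62, 2.29, 3.01 and 1.32 in WT and 2.39, 2.31, 3.51, 3.28 and 3.15 in CD44KO mice. They overlapped, and the WAT difference of 0.72 ± 0.36 was not called (adjusted p = 0.372). The 2 calls were sensitive to scaling and to single arrays: over 29 other settings Acot1 passed in 24 and Pdk4 in 12. With median centring, with no filter on dim probes, with the replicate block, without WT liver replicate 1 or without CD44KO liver replicate 1, neither passed. Acot1 alone passed without any 1 of WT liver replicates 2 and 3, CD44KO liver replicates 2, 4 and 5, WT WAT replicates 1 and 3, and CD44KO WAT replicates 1, 3, 4 and 5. Cyp4a14 differed between tissues by 2.28 ± 0.98 (adjusted p = 0.265), and Cyp4a10 by 1.23 (adjusted p = 0.0938).

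**Figure D4:**
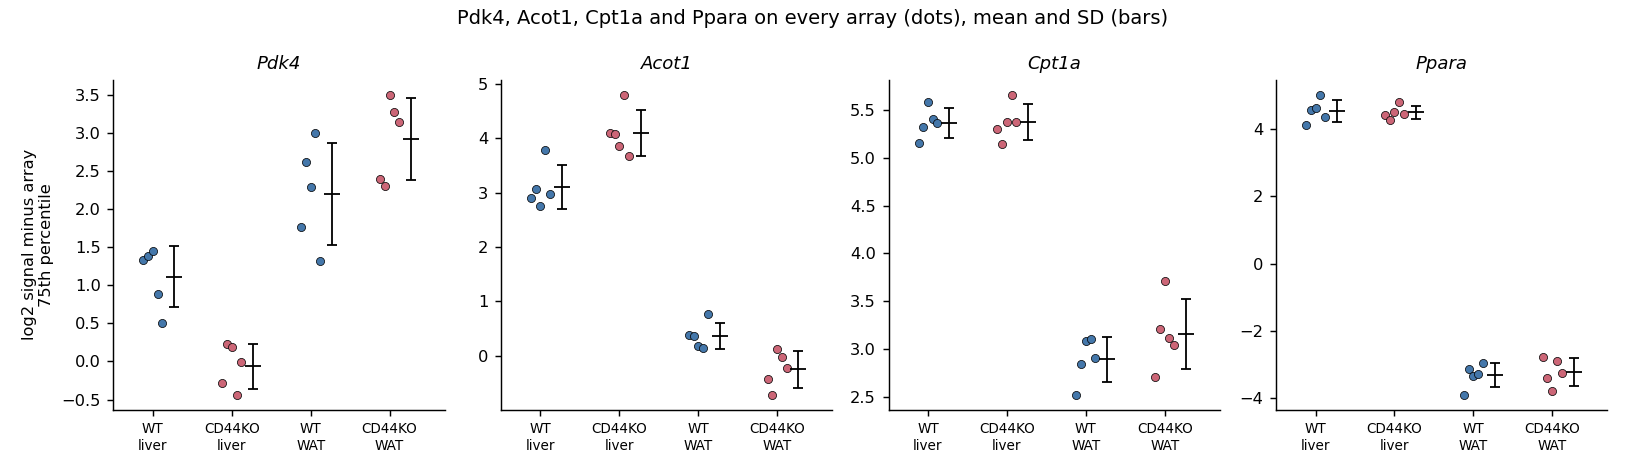
Log2 signal relative to the 75th percentile (vertical axis) of Pdk4, Acot1, Cpt1a and Ppara in all 20 arrays, by tissue and genotype, with mean and SD. Pdk4 is lower in CD44KO liver and not in CD44KO WAT. Acot1 is higher in CD44KO liver and lower, without a call, in CD44KO WAT. Cpt1a and Ppara overlap between genotypes in both tissues.

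Between the tissues of WT(HFD) mice, 34 of the 36 genes passed (94.4%), beside 70.5% of probes, and 32 were higher in liver, beside 36.1% of probes. Each tissue was scaled to its own 75th percentile and each slide held 1 tissue, so tissue and slide cannot be told apart. The median difference was 2.51. It was 9.52 ± 0.42 for Bdh1, 7.86 ± 0.21 for Ppara, 6.85 for Cyp4a14, 5.97 for Vnn1, 5.61 for Cyp4a10 and 5.47 for Acaa1b, each on its own probe. Among the remaining peroxisomal and omega-oxidation genes the difference was 4.79 for Pex11a, 4.46 for Decr2, 4.15 for Aldh3a2 and 2.24 for Acaa1a, and the mitochondrial genes ranged from 0.28 to 3.96. Hepatocyte markers differed by a median of 9.24 between the same arrays. Cpt1a was 5.56-fold higher in liver, Acaa2 15.6-fold and Ehhadh 25.4-fold. The only genes lower in liver were Pdk4 (-1.09 ± 0.30) and Abcd2 (-0.68 ± 0.20). Acsl1 (0.17) and Decr1 (0.28) were not called, and Acsl1 is known to be active in fat as well as in liver.

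**Figure D5:**
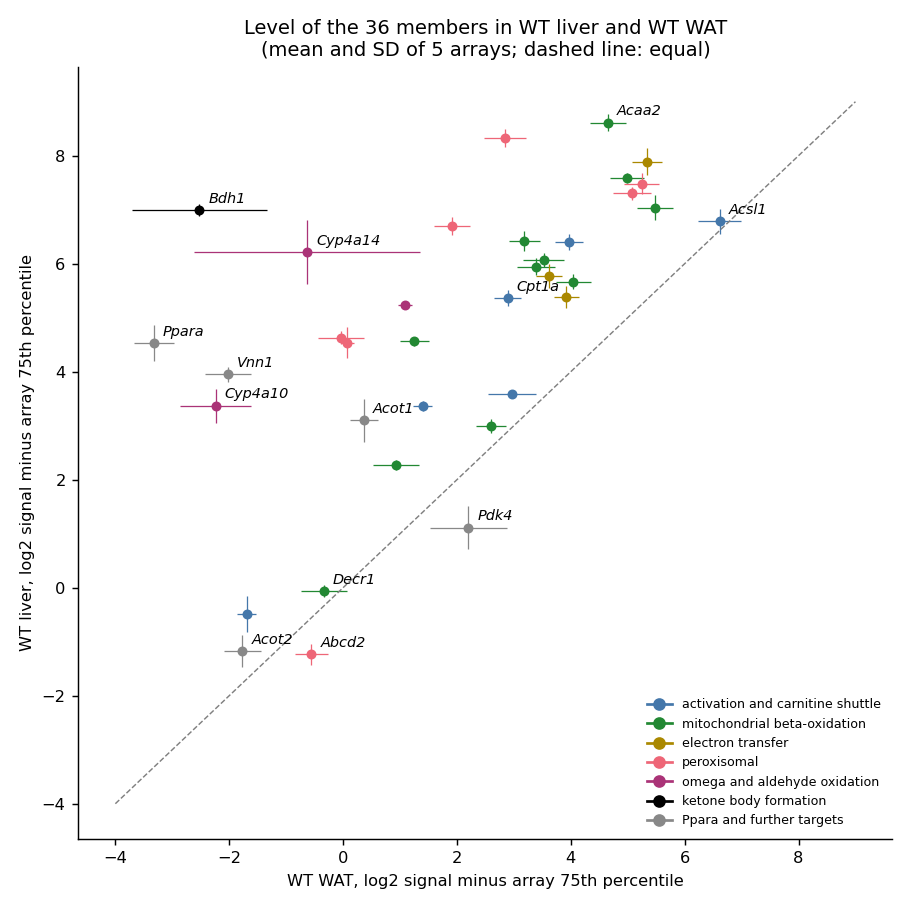
Mean log2 signal ± SD of each of the 36 genes in WT(HFD) liver (n = 5) against WT(HFD) WAT (n = 5), each relative to its array's 75th percentile. Points lie on the liver side of the diagonal for 34 of the 36 genes, with Pdk4 and Abcd2 on the WAT side.

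Beyond the 36 genes, 84 further genes of the pathway had a probe, and 14 of 82 tested passed in liver, 9 higher and 5 lower, with a median of 0.15. That share of 17.1% was near the 13.6% of all probes. By group, 4 of 15 further mitochondrial genes passed (26.7%, 3 higher) and 4 of 23 peroxisomal genes (17.4%, all higher). Of the ketone body genes 1 of 9 passed (11.1%, lower). Of the genes of PPAR control or PPAR targets, taken as 1 list, 5 of 35 passed (14.3%, 2 higher, 3 lower). Among those that passed, the largest differences were negative: Ucp2, a mitochondrial uncoupling protein, at -0.98 (adjusted p = 0.0234), Acss1, a mitochondrial acetyl-CoA synthetase, at -0.88 (adjusted p = 0.0286) and Hilpda, a lipid droplet protein, at -0.70 (adjusted p = 0.0146). Oxct1, the enzyme by which other tissues burn ketone bodies and which normal hepatocytes lack, was at -0.67 (adjusted p = 0.0288). Higher in CD44KO livers were Pecr, a peroxisomal enoyl-CoA reductase, at 0.67, Ivd, which breaks down leucine, at 0.66, Pdk1, a sister kinase of Pdk4, at 0.59 (adjusted p = 0.0184), and the isomerase Eci2 at 0.50. In WAT 0 of 81 passed in limma, with a median of 0.24, beside -0.06 over all probes. An unadjusted p below 0.05 was reached by 22 of them (27.2%), beside 14.9% of all probes.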

How the data were processed

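RNA from liver and WAT of 5 WT(HFD) and 5 CD44KO(HFD) mice was labelled with Cy3 and hybridised to 20 Agilent 1-colour whole-genome arrays. Each array file as deposited by the authors holds intensity values per spot from Feature Extraction 9.5.3.1, which per the file headers detrended the signal within the array, subtracted no background and replaced the dimmest spots by surrogate values. The deposited value table equalled the processed signal on 100% of spots. The authors' normalization and test are not given in the sources used here.

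Here the processed signal was taken as log2 minus each array's 75th percentile. Outlier spots were left out, spots of a probe were averaged, and probes with a missing value were not tested. A probe was tested where it was well above background (13 SD) on at least 3 of 5 arrays of a group. limma 3.58.1 in R 4.3.3 was fitted per tissue, and on all 20 arrays for comparisons across tissues, with Benjamini-Hochberg adjustment over all probes tested and a threshold of 0.05. Single genes also got a two-sided exact permutation test over 252 relabellings. Scripts were tested on simulated data. Array number limits the precision.

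The 36 genes and the lists of further pathway genes and cell type markers were chosen with earlier results of these data known. Every liver call, Ppara, Cpt1a and Bdh1 were to be described in full, up to 8 further pathway genes per tissue were named by size among those that passed, and other probes where sign or call differed. The WAT genes given in full were chosen after their values were seen. Gene names follow RefSeq (GRCm38.p6) for the 22951 probes whose accession matched, and the file's names otherwise. Alternatives were normexp (offset 50), quantile normalization, median centring, other filters, slide and replicate number as blocks, array weights, the deposited value table, the mean of a gene's probes, and leaving out each array. The count of WAT genes without overlap when WT WAT replicate 1 is left out was added after seeing the data.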

Additional observations from a re-analysis of the deposited data

Results flagged for a closer look

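In 144 groups of 5 arrays (36 genes in 4 groups), 13 held an array far from the rest of its group, where chance gives about 1 group in 20. Of these, 6 came from WT WAT replicate 1, which was the lowest of its group for Acadl (2.13), Hadh (2.81), Eci1 (2.71), Etfa (3.55), Pex11a (1.36) and Abcd2 (-1.07). CD44KO liver replicate 4 was the highest of its group for Slc25a20 (3.74), Acadm (7.58), Acadl (3.62), Eci1 (6.72) and Acaa1a (8.09). Cpt1b was lowest in WT WAT replicate 3 (-1.98), and Vnn1 was highest in WT liver replicate 3 (4.19). The genotype effect differed between liver and WAT for Pdk4 (-1.90, liver minus WAT, adjusted p = 0.0424 in limma) and for Acot1 (1.62, adjusted p = 0.0254), with the values of every array given above.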

How the results depend on the processing

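Of the 36 genes, 10 passed in liver. Under normexp 2 passed (2.6% of all probes) and with no filter 1 (2.5%). With the replicate block 5 passed (5.38%) and in the fit of all arrays 1 (2.2%). The other 7 alternatives gave 8 to 13 (12.8% to 19.5% of all probes). Leaving out 1 array gave 1 to 11, beside 3.8% to 19.2% of all probes. In WAT 0 passed, but 11 did in the fit of all arrays (5.68% of all probes) and 11 with array weights (19.2% of all probes), and leaving out 1 array gave 0 throughout. For the difference between tissues 2 passed (1.16% of all probes), with quantile normalization 1 (0.881%) and with array weights 4 (11.4%). With median centring, with no filter and with the replicate block 0 passed (at most 0.188% of all probes). Leaving out 1 array here gave 0 to 2, beside 0.292% to 2.01% of all probes. WT liver against WT WAT kept 29 to 34 calls, 33 with the replicate block, and 33 to 34 when 1 array was left out. Same-numbered arrays had correlations of -0.21 to 0.42 in their deviations from the group means. Such values cannot tell whether replicate numbers pair the samples. In WAT 0 of the 36 genes passed under the block, as in the main fit. The cause of these changes was not tested.

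Signs turned for small differences. Cpt1a in liver became -0.096 under normexp, -0.10 under quantile normalization and -0.071 for the mean of its probes, and ranged from -0.065 to 0.063 when 1 array was left out. Ppara in liver became 0.015 with array weights and ranged from -0.15 to 0.080. Ppara in WAT became -0.085 under normexp, -0.13 with the slide block and -0.021 with array weights, and ranged from -0.046 to 0.24. Pex11a in WAT became -0.0096 with the slide block and -0.047 with array weights, and Cyp4a10 in WAT 0.054 under median centring, which moved the median of all WAT probes from -0.06 to 0.42. Among all liver calls, 57.7% were higher in CD44KO mice, 33.8% under normexp and 21.5% in the fit of all arrays.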

Other observations

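Remaining marker lists were measured beside the 36 genes. Of 9 muscle markers tested in WAT the median was -0.65, and 3 epididymis markers tested had a median of -0.24, with 0 called in limma for both lists (1 and 0 at an unadjusted p below 0.05). In liver 2 of 6 muscle markers, 1 of 6 adipocyte markers and 1 of 5 mesothelium markers tested were called lower, 0 of 6 brown fat markers and 0 of 5 epididymis markers were called in limma (2 and 1 at an unadjusted p below 0.05). In WAT, 8 of 9 T cell markers had a negative difference (median -1.13) and the 9 stellate cell and fibroblast markers tested had a median of 0.01, none of them called.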
